A study of Mus musculus with 16 samples.

Results

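The cerebral cortex of 4 wild-type mice exposed to whole-body gamma radiation was compared with that of 4 sham-exposed wild-type mice, 20 h after the exposure. The members were the 8 arrays that the labels give as wild type, of 16 arrays in the series, with 1 Agilent 1-colour expression array per mouse. The other 8 arrays came from mice labelled Neil1 knockout that had the same exposures, and they enter here for the shared estimate of spread and for a side by side reading. Neil1 encodes a DNA glycosylase of base excision repair.

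Per the labels, the wild-type mice were male littermates of the knockouts, on a C57BL/6 background, and were 28 to 42 weeks old. The irradiated group (wild type, irradiated) received 6 Gy at 0.74 Gy/min, and the sham group (wild type, sham) was handled without radiation. The protocols describe injections of BrdU, a thymidine analogue, at 100 mg/kg before the exposure and 2 h after it and do not say whether sham mice received them, so a difference in BrdU and the radiation cannot be told apart. The whole body was exposed and the RNA was of bulk cortex, so each value is a mean over all cell types of the sample.

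Ionising radiation breaks DNA, and the kinases that sense the breaks stabilise the transcription factor p53. In tissues such as the brain, p53 then switches on genes that stop the cell cycle, genes that lower the threshold for cell death, genes for metabolic enzymes and secreted factors, and genes such as Mdm2 whose products switch p53 off again. Neurons no longer divide, while oligodendrocyte precursors and the neural precursors of the ventricular wall do, and microglia are the resident immune cells that react to damage.

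Levels are given as the log2 of the processed spot intensity minus the log2 of the 75th percentile of the same array, so a level of 0 equals that percentile and a difference of 1 is a 2-fold change. A gene was called when its adjusted p in limma was under 0.05, with Benjamini-Hochberg adjustment over all 17436 genes tested and 1 model over all 16 arrays. The labels say that the 4 arrays of a group are 4 mice. A probe not marked well above background on any array of a group has only a bound there, and its change is then given as "at least N-fold".

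The 75th percentile of intensity was 2415 ± 274 (SD, n = 4) on sham and 2301 ± 235 on irradiated arrays. Array pairs within a wild-type group correlated with r of 0.98 to 0.99 over genes. Of the spots, 69.3% to 72.4% were well above background on sham arrays and 66.5% to 68.3% on irradiated arrays, so the groups did not overlap (exact permutation test, two-sided p = 0.0286, the smallest that 4 against 4 arrays allow). Per the file headers, all wild-type arrays lay on 1 slide, sham in its row 1 and irradiated in its row 2, so slide row and radiation cannot be told apart. Centring each array on its median in place of the 75th percentile shifts every change up by 0.103, relative to which the values below should be read. The cortical neuron genes Slc17a7, Tbr1, Neurod6 and Cux2 were well above background on 8 of 8 wild-type arrays. Genes of the striatum varied between mice more than any other list: the median deviation of 20 such genes from their sham mean ran from -0.71 to 0.76 in sham and from -1.50 to 1.35 in irradiated mice, and the groups overlapped. Neil1 lay at -3.30, -3.75, -3.96 and -3.60 in sham and at -3.39, -3.61, -4.32 and -3.69 in irradiated mice, a difference of -0.10 (exact permutation test, two-sided p = 0.714). On the arrays labelled knockout it read -2.60 to -2.17 in sham and -2.56 to -2.15 in irradiated mice, higher than on every wild-type array. Whether the probe lies in the deleted part of Neil1 is not stated in the sources used here, so it does not check the genotype labels, and the group is called labelled knockout throughout.

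Some p53 target genes carry the 10-base p53 half-site, called the motif below, close to a transcription start. Matches for Cdkn1a, Rps27l, Mdm2, Ccng1, Bax and Aen are shown first, and those of other genes named here, if any, are not shown. The windows are RefSeq's, on GRCm38.p6, from 250 bases before to 50 bases after a start. Only motifs before the start are shown, for genes other than Cdkn1a only those at least 10 bases into the window. The shares given below use the whole window. Both strands are covered, since the motif is its own reverse complement, and the capitals mark it. The sequence shown for Cdkn1a, at chr17:29090729-29090978 on the plus strand, ends at the base before the upstream of its RefSeq starts and holds 2 motifs, with first bases at -73 and -51 and 12 bases between them.
Cdkn1a: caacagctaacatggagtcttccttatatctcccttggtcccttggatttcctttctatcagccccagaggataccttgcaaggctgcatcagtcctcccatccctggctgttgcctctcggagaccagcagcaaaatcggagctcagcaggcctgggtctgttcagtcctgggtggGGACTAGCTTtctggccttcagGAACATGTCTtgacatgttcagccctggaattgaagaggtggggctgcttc
The 250 bases before the downstream RefSeq start of Cdkn1a, at 29093769, held 0 motifs. Rps27l, which was called, held 2 motifs too far apart to count as a pair, at chr9:66946193-66946222 and chr9:66946296-66946325 on the plus strand, each shown with 10 bases on either side.
Rps27l, first: ctttgggctcGGGCTTGCTTtccttcaggc
Rps27l, second: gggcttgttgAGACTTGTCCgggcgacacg
The p53 targets Mdm2 (chr10:117710925-117710954, minus strand), Ccng1 (chr11:40755452-40755481, minus strand), Bax (chr7:45467080-45467109, minus strand) and Aen (chr7:78895927-78895956, plus strand) have 1 motif each shown. These genes were not called. They are shown because they have the motif in the window without a call.
Mdm2: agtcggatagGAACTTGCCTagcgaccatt
Ccng1: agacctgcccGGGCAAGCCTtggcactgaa
Bax: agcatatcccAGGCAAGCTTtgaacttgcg
Aen: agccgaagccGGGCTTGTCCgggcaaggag
Over all 32851 windows the motif stood in 8.36%, and a pair with at most 13 bases between its members in 0.0731%. Of the 13 called genes, 10 have a window in the table, of which 2 held a motif and 1, Cdkn1a, a pair. Counted over genes, 9.55% of all genes held the motif in any of their windows and 0.074% a pair. A match is a description of the letters only, and the binding of p53 was not measured.

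In wild-type cortex 11 genes were called higher and 2 lower in irradiated than in sham mice. The genes that rose were Eda2r, Gdf15, Trp53inp1, Ephx1, Mgmt, Tnfrsf10b, Dcxr, Cdkn1a, Cox6b2, Alox5 and Rps27l, and those that fell were Pbk and P2ry12. The 13 called genes were 0.0746% of the genes tested, 0.0631% higher and 0.0115% lower. The arrays of the 2 groups did not overlap for any of the 13, beside 1.97% of all genes without overlap, 0.866% higher and 1.1% lower in irradiated mice. Before adjustment, 344 genes (1.97%) had a p under 0.05, 130 higher (0.746%) and 214 lower (1.23%). Of all 17436 genes tested 7937 lay below 0, and these shares are the background of the list counts below. Normexp background correction called 11 genes and the deposited scores also 11, in each case all higher and 0 lower. With normexp all 11 were among the 13. With the deposited scores 10 were, H2bc22 was gained, and Pbk was not tested.

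**Figure D1:**
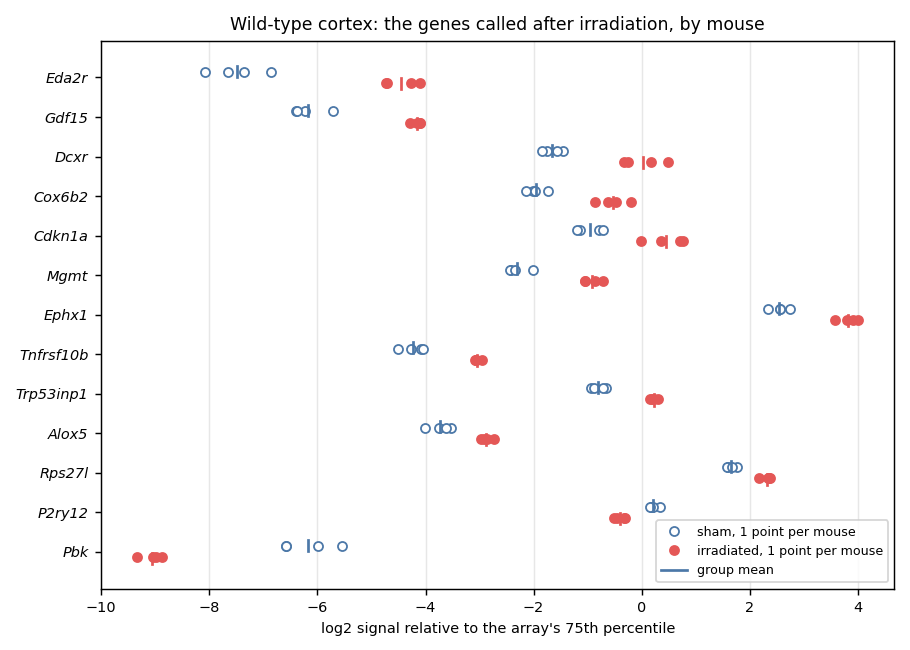
Level of each called gene in each wild-type mouse; the x axis is the level (log2 scale, 0 at the 75th percentile of that array), open circles are sham mice, filled circles irradiated mice and ticks the group means (n = 4). For each of the 13 genes all irradiated points lie on one side of all sham points; Eda2r in sham and Pbk in irradiated mice were not well above background.

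**Figure D2:**
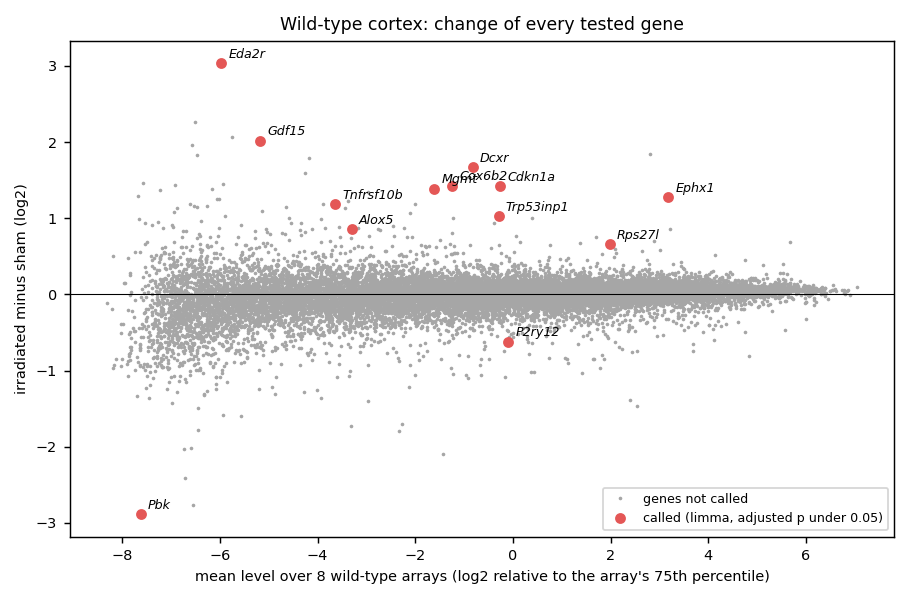
Change of each tested gene (irradiated minus sham, log2) against its mean level over the 8 wild-type arrays; grey points are genes not called and red points the 13 called genes. The red points lie between -2.88 (Pbk) and 3.04 (Eda2r), while uncalled genes spread more widely at low levels than at high ones.

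The p53 targets fall into 3 lists by role, with 67 tested genes. Of these, 8 rose, 0 fell, and 51 lay above 0 with a median change of 0.08, beside 9499 of 17436 and a median of 0.01 over all genes tested. Before adjustment 16 were higher and 1 lower at a p under 0.05, and 12 were higher with no overlap between groups. The median was 0.17 without irradiated replicate 1. The 8 that rose are genes that the earlier results of these data had already shown, so the count is not independent evidence of the direction.

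Among the targets that stop the cell cycle or feed back on p53, 3 of 21 rose: Cdkn1a, Trp53inp1 and Rps27l. Cdkn1a encodes p21, the inhibitor of cyclin-dependent kinases. Its probe for NM_007669 read -0.79, -0.72, -1.15 and -1.20 in the 4 sham mice and 0.77, 0.71, 0.36 and -0.01 in the 4 irradiated mice. Every irradiated mouse lay above every sham mouse, and the change was 1.42 ± 0.19 (SE; 2.68-fold, adjusted p = 0.00472). In a fit of the 2 wild-type groups alone the adjusted p of Cdkn1a was 0.145. Another Cdkn1a probe, listed for NM_001111099, cleared background on 4 of 4 irradiated arrays and on 0 of 4 sham arrays. It read -3.81, -4.03, -4.22 and -4.16 after irradiation, which was at least 8.88-fold higher than sham (adjusted p = 0.000937 over 39589 probes). A filter removed dim probes before the test. This probe was kept through irradiated arrays alone, 4 of 4 in wild type and 4 of 4 in labelled knockout. The part of the filter in its call was not tested. The RefSeq window table does not tie these transcripts to the starts shown above.

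Trp53inp1 encodes a p53-induced nuclear protein that takes part in autophagy and cell death. It read -0.94, -0.88, -0.66 and -0.72 in sham and 0.15, 0.31, 0.23 and 0.20 in irradiated mice. The irradiated values lay within 0.16 of each other, and the change was 1.03 ± 0.09 (adjusted p = 7.62e-05), with 0.57 on a second, dimmer probe. Rps27l encodes a paralogue of ribosomal protein S27. Its levels were 1.60, 1.58, 1.76 and 1.68 in sham and 2.18, 2.33, 2.36 and 2.38 in irradiated mice. That is a change of 0.66 ± 0.10 (adjusted p = 0.0131), with 0.72 on its other probe, and the adjusted p of Rps27l ran from 0.00166 to 0.566 over 28 alternatives. The call was lost without irradiated replicate 2, 3 or 4 and without sham replicate 1, 2 or 4.

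The other 18 targets of this role did not pass. Gtse1, a microtubule-binding protein that moves p53 out of the nucleus, was not well above background in any sham mouse and read -5.17, -5.20, -5.41 and -5.72 after irradiation. It was at least 3.43-fold higher, without overlap, at an adjusted p of 0.0808. Mdm2, the ubiquitin ligase that degrades p53, read 2.50 to 2.74 in sham and 2.71 to 2.89 in irradiated mice, and the groups overlapped (change 0.15 ± 0.11, unadjusted p = 0.189). Ccng1, which encodes cyclin G1, changed by 0.53 ± 0.23 with overlap, as its sham mice ran from 1.03 to 2.33. Phlda3, a repressor of the kinase Akt, changed by 0.57 ± 0.20, Sesn2, a sestrin, by 0.35 ± 0.12, and Btg2, an antiproliferative factor, by 0.35 ± 0.38. Gadd45a, a stress gene of growth arrest, changed by -0.30 ± 0.26, Zmat3, an RNA-binding protein, by 0.08 ± 0.09 and Sesn1 by -0.02 ± 0.08. In this list 15 of 21 members lay above 0, 7 with an unadjusted p under 0.05 and all of these higher, and the median change was 0.15. The list median ran from 0.07 to 0.19 with 1 wild-type array left out at a time, and was lowest (0.07) without irradiated replicate 2 or 4.

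Among death receptors and genes of apoptosis, 2 of 21 rose: Eda2r and Tnfrsf10b. Eda2r encodes the receptor of ectodysplasin A2, a member of the tumour necrosis factor receptor family. It read -7.36, -7.65, -8.09 and -6.86 in sham, none of them well above background, and -4.26, -4.11, -4.73 and -4.72 in irradiated mice, all well above it. Irradiated mice were at least 6.72-fold higher (adjusted p = 5.65e-05). The filter on dim probes kept Eda2r through irradiated arrays alone, 4 of 4 in wild type and 4 of 4 in labelled knockout. The part of the filter in this call, and in the counts of p53 targets that include Eda2r, was not tested. The share of spots well above background also differed between the groups, as given above, and its part in the change of this dim probe was not tested. Tnfrsf10b encodes a death receptor for the ligand TRAIL. It read -4.09, -4.51, -4.05 and -4.27 in sham and -3.07, -2.96, -3.09 and -3.06 in irradiated mice. The irradiated mice were almost alike (SD 0.06) and the change was 1.18 ± 0.13 (adjusted p = 0.000567).

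The genes of the mitochondrial death pathway did not pass. Bax, the pore former of the outer mitochondrial membrane, changed by 0.25 ± 0.17, Bbc3, which encodes PUMA, by 0.26 ± 0.12, and Pmaip1, which encodes NOXA, by 0.26 ± 0.32. Fas, the receptor of Fas ligand, changed by 0.39 ± 0.25, and its groups overlapped. Aen, an apoptosis-enhancing nuclease, read 2.34, 2.51, 2.72 and 2.56 in sham and 2.95, 3.20, 3.40 and 3.37 in irradiated mice. The groups of Aen did not overlap and its 3 probes gave 0.64 to 0.70, but the adjusted p was 0.176. Of this list 18 of 21 members lay above 0 with a median of 0.22, and the mean level of the list was -1.06 to -0.98 in sham and -0.71 to -0.66 in irradiated mice, which did not overlap. Its median change was 0.13 without sham replicate 4. In the Bcl2 family, which shares Bax and Bbc3, among others, with that list, 0 of 16 genes were called by limma and 1 had an unadjusted p under 0.05. That gene was Bmf, a BH3-only death promoter, at -0.41 ± 0.13, and its other probe went the other way at 0.21 ± 0.33 with overlap. Of the 16 family members 12 lay above 0, with a median of 0.07. Their mean level was 0.58 to 0.65 in sham and 0.66 to 0.71 in irradiated mice, without overlap.

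Among enzymes and secreted effectors, 3 of 25 rose: Gdf15, Dcxr and Ephx1. Gdf15 encodes a stress-induced cytokine that acts on the brainstem to curb appetite. It read -6.22, -6.40, -6.38 and -5.72 in sham and -4.29, -4.10, -4.09 and -4.16 in irradiated mice, a change of 2.02 ± 0.17 (4.05-fold, adjusted p = 7.50e-05). The spread of Gdf15 between mice was 0.32 in sham and 0.09 after irradiation (SD, n = 4). Dcxr encodes dicarbonyl and L-xylulose reductase. It read -1.75, -1.45, -1.57 and -1.85 in sham and 0.48, 0.17, -0.26 and -0.33 in irradiated mice. The irradiated mice of Dcxr varied more than the sham mice (SD 0.38 against 0.18), without overlap, and the change was 1.67 ± 0.20 (adjusted p = 0.00134). Ephx1 encodes microsomal epoxide hydrolase. It read 2.34, 2.74, 2.55 and 2.55 in sham and 3.58, 3.79, 4.01 and 3.92 in irradiated mice, a change of 1.28 ± 0.13 (2.43-fold, adjusted p = 0.000297).

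Of the same list, Dglucy, a mitochondrial D-glutamate cyclase, changed by 0.77 ± 0.16 without overlap (adjusted p = 0.176), and Tap1, a peptide transporter of antigen presentation, by 0.38 ± 0.14 without overlap. Fdxr, ferredoxin reductase, changed by -0.23 ± 0.10, the only member below 0 with an unadjusted p under 0.05. Rrm2b, a subunit of ribonucleotide reductase, read -1.59, -1.47, -1.21 and -8.61 in irradiated mice against -1.46 to -1.42 in sham, so that its change of -1.79 ± 1.17 came from irradiated replicate 4, where it was not well above background. In all, 18 of 25 members lay above 0 with a median of 0.06, and the median was 0.00 without irradiated replicate 2.

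**Figure D3:**
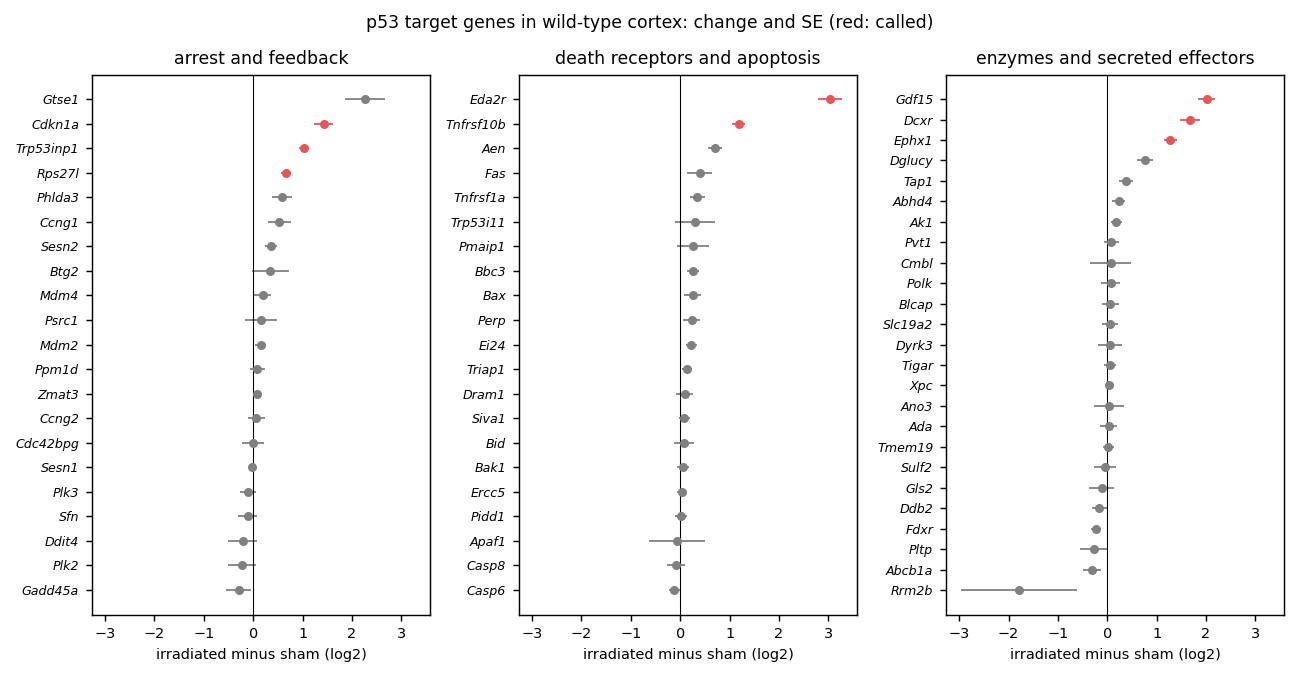
Change of each tested p53 target (irradiated minus sham, log2, with the SE of the fit) in wild-type cortex, in 3 panels by role; red points passed the test. The panels hold 3, 2 and 3 red genes, Gtse1 lies at 2.26 without passing, and most other members lie within 0.5 of 0; Rrm2b has the widest bar, with 1 mouse at -8.61.

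Outside these lists 3 genes rose. Mgmt encodes the methyltransferase that takes alkyl groups off guanine in DNA. It read -2.42, -2.02, -2.44 and -2.35 in sham and -1.05, -1.04, -0.86 and -0.72 in irradiated mice, a change of 1.39 ± 0.14 (2.62-fold, adjusted p = 0.000313). Mgmt was the 1 gene called of 24 genes of alkylation, excision and bypass repair, whose median change was 0.03. In this list Ercc2, a helicase of nucleotide excision repair, had irradiated mice at 0.58, 0.58, 0.44 and -1.85, and its change of -0.78 ± 0.40 came mostly from irradiated replicate 4. Its other probe gave -0.03. Limma called 0 of 22 genes of base excision repair and 0 of 26 genes of the double-strand break response, and 0 in either list had an unadjusted p under 0.05. Their median changes were both 0.02, and the largest were 0.24 for Ung, the uracil glycosylase, -0.27 for Mutyh, the adenine glycosylase, and -0.21 for Dclre1c, which encodes the nuclease Artemis.

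Cox6b2 encodes a subunit isoform of mitochondrial complex IV, described mainly in testis. It read -1.73, -2.01, -2.15 and -1.97 in sham and -0.20, -0.62, -0.86 and -0.48 in irradiated mice, a change of 1.43 ± 0.19 (adjusted p = 0.00472). Alox5 encodes the lipoxygenase that starts leukotriene synthesis. It read -3.75, -3.54, -3.62 and -4.02 in sham and -2.92, -2.97, -2.74 and -2.87 in irradiated mice, a change of 0.85 ± 0.13 (adjusted p = 0.0129). The call of Alox5 was lost without irradiated replicate 3 or 4 and without sham replicate 1 or 4, and its adjusted p reached 0.159 over 28 alternatives. Other genes of eicosanoid synthesis went both ways: Hpgds, a prostaglandin D synthase, changed by -0.57 ± 0.14 and Hpgd, which inactivates prostaglandins, by -0.41 ± 0.15, both without overlap, and Ltc4s, leukotriene C4 synthase, by 0.28 ± 0.11. In that list 1 of 21 genes was called and the median change was -0.04.

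At the level of probes, 16 of 39589 were called (0.0404%), 15 of them higher. Besides the genes above these held 2 probes that the gene table does not name. The probe listed for ENSMUST00000125242 read -5.70, -5.31, -5.37 and -5.59 in sham and -3.37, -3.64, -4.17 and -4.19 in irradiated mice, a change of 1.65. The probe listed for ENSMUST00000106148 read -2.004, -1.48, -1.74 and -1.86 in sham and 0.35, 0.04, -0.42 and -0.40 in irradiated mice, a change of 1.66. Of 17380 genes the one most like each of them over the 16 arrays was Dcxr (Pearson r of 0.9969 and 0.9937, a description over arrays that share the exposure).

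The genes that came next by p were Gtse1, Il7r, Osgin1, H2bc22, Pimreg, Avil, Gm10790, Spc25, Aen and Dglucy, with adjusted p of 0.0808 to 0.176. None of these 10 overlapped between groups and 7 were higher. Osgin1, a growth inhibitor induced by oxidative stress, read -4.99 to -4.44 in sham and -4.01 to -3.90 in irradiated mice (0.79 ± 0.14). In the list of oxidative stress defence, which includes Osgin1, limma called 0 of 28 genes, 1 had an unadjusted p under 0.05, and the median was 0.05. H2bc22, a histone H2B gene, changed by 1.25 ± 0.23 and Avil, which encodes the actin-binding protein advillin, by 1.60 ± 0.31. The second probe of Avil gave 0.73 with overlap.

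Genes of mitosis were lower after irradiation as a list, and 1 of 38, Pbk, fell. Pbk encodes a mitotic kinase. It read -6.58, -6.59, -5.99 and -5.55 in sham, all well above background, and -8.88, -9.34, -8.98 and -9.04 in irradiated mice, none well above it. Irradiated mice were at least 1.66-fold lower (adjusted p = 0.00054), and with normexp background correction Pbk was not called. The share of spots well above background was lower on irradiated arrays by 3.54 percentage points, and its part in the changes of dim genes such as Pbk was not tested. Pimreg, a regulator of the metaphase to anaphase step, read -5.80, -5.68, -5.54 and -4.99 in sham and was well above background on 0 of 4 irradiated arrays, at least 2.64-fold lower (adjusted p = 0.0976). Ccnb1, the cyclin of mitotic entry, showed the same pattern at -5.99, -6.43, -5.20 and -5.28 in sham, and was at least 2.26-fold lower (adjusted p = 0.176). Spc25, a kinetochore subunit, went the other way, from -3.11 to -2.76 in sham to -2.31 to -1.83 in irradiated mice, a change of 0.90 ± 0.18 (adjusted p = 0.176) with 0.67 on its other probe.

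Of the 38 mitosis genes 34 lay below 0, 15 with an unadjusted p under 0.05 and below 0, and 14 were lower without overlap. Over all genes tested 7937 of 17436 lay below 0, 1.23% with an unadjusted p under 0.05, and 1.1% were lower without overlap. The median change was -0.37, and it ran from -0.45 to -0.34 when 1 wild-type array was left out at a time. It was -0.18 with normexp background correction and -0.17 over probes well above background on all 16 arrays. The mean level of the list was -4.25 to -3.81 in sham and -4.74 to -4.57 in irradiated mice, without overlap. Pbk, Pimreg and Ccnb1, not well above background on any irradiated wild-type array, enter this mean and the counts above. The filter on dim probes kept Pbk through sham arrays alone. The part of the filter in this separation was not tested. Genes of DNA replication were nearer to 0, with 0 of 35 called by limma, 2 with an unadjusted p under 0.05 and a median of -0.03. Those 2 were Tk1, thymidine kinase, at -0.79 ± 0.27 without overlap, and Cdc6, a loader of the replicative helicase, at -0.47 ± 0.15 with overlap. In bulk cortex, fewer dividing cells and less RNA of these genes per cell cannot be told apart.

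The series' title names neurogenesis as a subject, and genes of neural stem cells and neuroblasts showed little difference between groups. Limma called 0 of 29, 0 had an unadjusted p under 0.05, and the median was 0.05, with a range of -0.06 to 0.08 leaving out 1 array at a time. Sp8, a transcription factor of interneuron precursors, changed by 0.41 ± 0.24, Dlx2, a factor of the same lineage, by 0.22 ± 0.16, Nes, which encodes nestin, by -0.25 ± 0.19, and Notch1, the receptor that maintains stem cells, by -0.89 ± 0.67. Each of these 4 overlapped between groups.

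P2ry12, the nucleotide receptor of resting microglia, was the second gene that fell. It read 0.16, 0.33, 0.22 and 0.15 in sham and -0.45, -0.52, -0.31 and -0.34 in irradiated mice, so it fell by 0.62 ± 0.10 on the log2 scale (adjusted p = 0.0357). The call is the least stable of the 13: it was lost in 20 of 28 alternatives, among them the omission of any 1 of the 8 wild-type arrays, with adjusted p from 0.00927 to 0.971 and the same direction in all 28. Most other genes of resting microglia lay below 0 as well. Csf1r, the receptor of colony-stimulating factor, read 3.69 to 3.92 in sham and 3.05 to 3.59 in irradiated mice (-0.43 ± 0.14), while another Csf1r probe gave -0.10 ± 0.16 with overlap. Slc2a5, a fructose transporter, changed by -0.71 ± 0.22, and Tgfbr1, a receptor of transforming growth factor beta, by -0.38 ± 0.12, with -0.32 and overlap on its other probe. Of 24 such genes 22 lay below 0, 1 was called and 4 did not overlap, all lower, with a median of -0.16. Before adjustment 4 were lower and 1 higher at a p under 0.05, and Ltc4s was the highest of the list at 0.28. Over all genes tested 7937 of 17436 lay below 0, 0.0115% were called lower and 1.1% were lower without overlap. The defining markers Cx3cr1, the fractalkine receptor, and Tmem119 changed by -0.16 and -0.05, both with overlap.

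Genes of activated microglia and lysosomes had no common direction, with 0 of 26 called by limma, 3 with an unadjusted p under 0.05, and a median of 0.00. Lgals3, which encodes galectin 3, changed by 0.77 ± 0.30 with overlap, Ctss, cathepsin S, by -0.40 ± 0.12 with overlap, and Ccl6, a chemokine, by -0.54 ± 0.16 without overlap. Complement genes had 0 of 18 called by limma and 3 with an unadjusted p under 0.05, all higher. Cfb, complement factor B, read -6.41 to -5.77 in sham and -5.49 to -5.07 in irradiated mice (0.76 ± 0.24), C3ar1, the C3a receptor, changed by 0.54 ± 0.18, and C5ar1, the C5a receptor, by 0.52 ± 0.16. The median over the 18 complement genes was 0.03, and 0.05 to 0.15 leaving out 1 wild-type array at a time, highest without irradiated replicate 1.

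The title also names neuroinflammation, and inflammatory genes varied between mice. Limma called 0 of 29 cytokine and feedback genes of NF-kB, and 5 had an unadjusted p under 0.05, all higher and all overlapping between groups. Ccl3, a chemokine, read -6.05, -5.43, -4.51 and -4.86 in sham and -3.63, -4.34, -3.73 and -4.56 in irradiated mice (1.15 ± 0.35). Lcn2, lipocalin 2, read -4.73 to -4.13 in sham and -2.23, -3.43, -3.14 and -4.37 in irradiated mice (1.18 ± 0.42). The irradiated mice of Lcn2 thus ran from the sham range to well above it. Ccl2, a monocyte chemokine, changed by 0.80 ± 0.29 and Icam1, an adhesion molecule, by 0.60 ± 0.25. The median of the list was 0.04.

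Interferon-stimulated genes had 0 of 37 called by limma and 4 with an unadjusted p under 0.05, all higher: Bst2 (tetherin) at 0.42 ± 0.13, Ifitm3, which blocks viral entry, at 0.45 ± 0.18, Oasl2, of the oligoadenylate synthetase family, at 0.46 ± 0.18 and Zbp1, a sensor of Z-form nucleic acids, at 0.55 ± 0.24. Of the 37 genes 23 lay above 0, with a median of 0.13. The median deviation from the sham mean was -0.18 in irradiated replicate 1 and 0.19 to 0.23 in the other 3 irradiated mice, against -0.17 to 0.13 in sham, so the groups overlapped. Without irradiated replicate 1 the median was 0.22, and without sham replicate 2 or irradiated replicate 3 it was 0.07.

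Genes of antigen presentation had 0 of 18 called by limma and 4 with an unadjusted p under 0.05, of which Tap1 lay above 0. The class II genes H2-Oa and H2-DMb1 changed by -0.71 ± 0.20 and -0.37 ± 0.15, and Ciita, the class II transactivator, by -0.89 ± 0.38. The median of -0.17 became -0.03 without sham replicate 3 and -0.33 without sham replicate 1. Of 19 lymphocyte genes limma called 0, and 3 had an unadjusted p under 0.05, all lower without overlap. Il7r, a chain of the interleukin 7 receptor, read -4.79, -4.62, -4.80 and -4.61 in sham and -6.11, -5.86, -5.41 and -5.42 in irradiated mice (-0.997 ± 0.18, adjusted p = 0.0815). Cd79b, a B cell receptor subunit, changed by -0.70 ± 0.15 (adjusted p = 0.218) and Tnfrsf17, a receptor of plasma cells, by -0.67 ± 0.19. Cd3e, the defining T cell gene, changed by 0.28. The lymphocyte median was -0.12, but 0.06 without sham replicate 4. Of 14 platelet and red cell genes limma called 0, and 1, the platelet glycoprotein Gp9, had an unadjusted p under 0.05 (-0.75 ± 0.19). Their median was -0.01, but -0.16 without sham replicate 3 and 0.17 without irradiated replicate 3.

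Oligodendrocyte precursors are dividing cells of the adult cortex, and 19 of their 24 genes lay below 0, with a median of -0.19. Limma called 0 of them and 3 had an unadjusted p under 0.05, all lower. Neu4, a sialidase, read -3.85, -3.79, -3.56 and -3.81 in sham and -4.20, -4.22, -4.12 and -4.53 in irradiated mice, a change of -0.51 ± 0.12 (adjusted p = 0.36) with -0.23 and overlap on its other probe. Gpr17, a receptor of committed precursors, read 2.37, 2.46, 2.16 and 2.52 in sham and 1.85, 1.78, 1.97 and 2.09 in irradiated mice (-0.45 ± 0.14). Both genes separated the groups, whereas the defining markers Pdgfra, the receptor of platelet-derived growth factor, and Cspg4, the NG2 proteoglycan, changed by -0.24 and 0.03 with overlap. Matn4, a matrix protein, changed by -0.80 ± 0.35 with overlap. The mean level of the list was -0.50 to -0.31 in sham and -0.73 to -0.52 in irradiated mice, without overlap, and its median change ran from -0.21 to -0.13 leaving out 1 wild-type array at a time.

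Genes of mature oligodendrocytes, which make myelin, all lay below 0 (22 of 22, median -0.29), with 0 called by limma and 0 with an unadjusted p under 0.05. The deviation of the list was -0.64 in sham replicate 1 and 0.08 to 0.30 in the other 3 sham mice, and -0.95 in irradiated replicate 4 and -0.25 to 0.13 in the other 3 irradiated mice. Single mice therefore set the value: without irradiated replicate 4 the median was -0.07, and without sham replicate 1 it was -0.50. Gjc3 and Gjb1, connexins of oligodendrocytes, changed by -0.64 ± 0.42 and -0.48 ± 0.38, Opalin, a membrane protein of myelin-forming cells, by -0.50 ± 0.42 and Ugt8a, an enzyme of myelin lipid synthesis, by -0.38 ± 0.32.

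**Figure D4:**
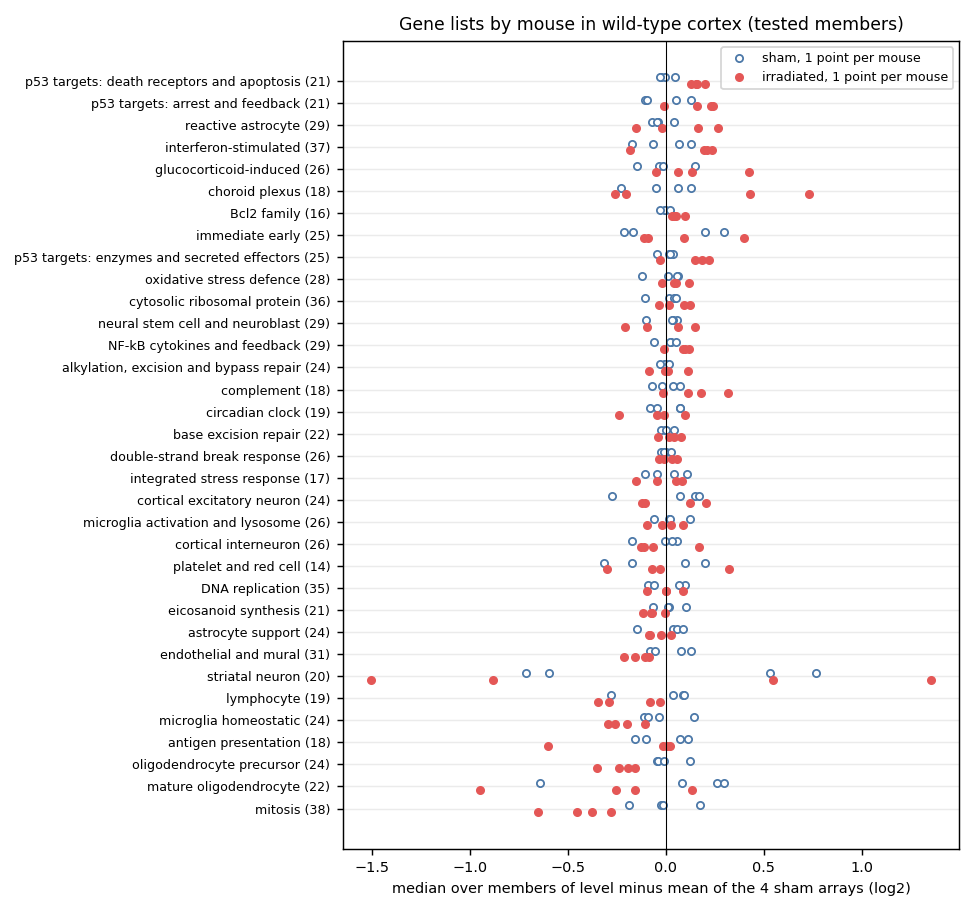
Median over the tested members of each gene list of the level minus the mean of the 4 sham arrays (log2), with 1 open circle per sham mouse and 1 filled circle per irradiated mouse; the number of tested members is in brackets. The irradiated points lie apart from the sham points for mitosis (-0.65 to -0.28 against -0.19 to 0.17). They also lie apart for death receptors and apoptosis and for oligodendrocyte precursors, and narrowly for endothelial and mural genes and the Bcl2 family. Striatal genes spread widely in both groups.

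Astrocytes, neurons and vessels gave no called gene. Among 29 genes of reactive astrocytes limma called 0 and 2 had an unadjusted p under 0.05, Lcn2 and Timp1, a protease inhibitor (0.39 ± 0.17). The list's median was 0.15, and 0.04 without sham replicate 2 and 0.06 without irradiated replicate 3 or 4. Limma called 0 of 24 astrocyte support genes and 0 had an unadjusted p under 0.05, around a median of -0.05, Kcnj10, a potassium channel, being the farthest from 0 at -0.36 ± 0.23. Genes of cortical excitatory neurons (24) and interneurons (26) had medians of 0.02 and 0.00, again with 0 called by limma and 0 with an unadjusted p under 0.05. Among them Camk2a, a synaptic kinase, changed by 0.39 ± 0.20 and Lhx6, a factor of interneurons, by -0.30 ± 0.22. Of 31 endothelial and mural genes limma called 0 and 2 had an unadjusted p under 0.05, Cldn5, a tight junction protein (-0.42 ± 0.16, no overlap), and Ly6a, a surface antigen of vessels (0.47 ± 0.20, overlap), with a median of -0.07.

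Genes of neighbouring tissue moved with the mouse rather than with the group. Choroid plexus genes deviated by 0.73 and 0.43 in irradiated replicates 1 and 4 and by -0.26 and -0.20 in replicates 2 and 3, against -0.23 to 0.13 in sham, with 0 of 18 called by limma and 0 with an unadjusted p under 0.05. Ttr, the transthyretin of choroid plexus, read 1.38, -0.86, -1.74 and -0.61 in irradiated mice and -0.82 to -0.22 in sham. Adora2a, the adenosine receptor of striatal neurons, read 0.65, 2.38, -0.34 and 1.82 in sham and 2.35, -0.47, 2.94 and -2.85 in irradiated mice, and 0 of 20 striatal genes were called by limma or had an unadjusted p under 0.05. The part of such differences in the other lists was not tested.

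In other stress programmes limma called 0 of 17 genes of the integrated stress response (2 with an unadjusted p under 0.05, median 0.02), 0 of 25 immediate early genes (0, median 0.06) and 0 of 19 clock genes (0, median 0.03). Of 26 glucocorticoid-induced genes Cdkn1a was the 1 called, and 3 had an unadjusted p under 0.05, among them Sult1a1, a phenol sulfotransferase, at 0.65 ± 0.14 without overlap (adjusted p = 0.232). Of that list 18 genes lay above 0 and 3 were higher without overlap, with a median of 0.13, and of 0.03 without irradiated replicate 2. Of 36 cytosolic ribosomal protein genes 31 lay above 0 with a median of 0.05, and Rps27l was the 1 called. Relative to the median of all genes the ribosomal list lay at 0.04, and at -0.01 with quantile normalization.

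The same exposure in mice labelled Neil1 knockout is given beside these values, from other mice on arrays of another slide. On that slide too sham lay in row 1 and irradiated in row 2, so slide row and radiation cannot be told apart. Both comparisons also share the probe filter and the estimate of spread, so their calls are not independent. In labelled knockout 21 genes were called (0.12%), 13 higher (0.0746%) and 8 lower (0.0459%). All 13 genes called in wild type were among them, in the same direction. The shared genes were 100% of the wild-type calls and 61.9% of the labelled knockout calls. Gdf15 changed by 2.02 ± 0.17 in wild type and 1.79 ± 0.17 in labelled knockout, Cdkn1a by 1.42 ± 0.19 and 1.21 ± 0.19, Trp53inp1 by 1.03 ± 0.09 and 1.04 ± 0.09, and P2ry12 by -0.62 ± 0.10 and -0.76 ± 0.10.

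The test of the difference between the genotypes' responses called 0 of 17436 genes by limma, and 222 (1.27%) had an unadjusted p under 0.05. Of the 13 genes the smallest unadjusted p of this difference was 0.107, for Pbk. For Gdf15 the response was larger in wild type by 0.23, with a 95% interval from -0.29 to 0.74, for Cdkn1a by 0.21 (-0.36 to 0.79), and for Trp53inp1 it differed by -0.01 (-0.28 to 0.26). These intervals do not show that the responses were alike. Genotype and slide cannot be told apart in this comparison.

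The 8 genes called in labelled knockout and not in wild type, chosen after their values were seen, were Gtse1, Cenpf, Gpr17, Neu4, Epha2, Gp9, Ccl24 and Tmem45a. All 8 changed in the same direction in wild type, 7 of them with an unadjusted p under 0.05. Epha2, an ephrin receptor, changed by 0.89 ± 0.21 in wild type and by 1.15 ± 0.21 in labelled knockout. Cenpf, a kinetochore protein, changed by -1.15 ± 0.25 and -2.05 ± 0.25 (unadjusted p of the difference = 0.0233), and on a dimmer probe by -0.80 and -0.48. Ccl24, an eosinophil chemokine, changed by -0.15 ± 0.13 in wild type and was the exception. Mitosis genes had a median of -0.37 in wild type and -0.30 in labelled knockout, resting microglia genes -0.16 and -0.22, oligodendrocyte precursor genes -0.19 and -0.23, and interferon-stimulated genes 0.13 and 0.27. The p53 targets of death receptors and apoptosis had 0.22 in wild type (18 of 21 above 0) and 0.056 in labelled knockout (13 of 21), and complement genes 0.03 and 0.21. Mature oligodendrocyte genes had -0.29 in wild type and 0.20 in labelled knockout. These differences of lists were not tested.

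**Figure D5:**
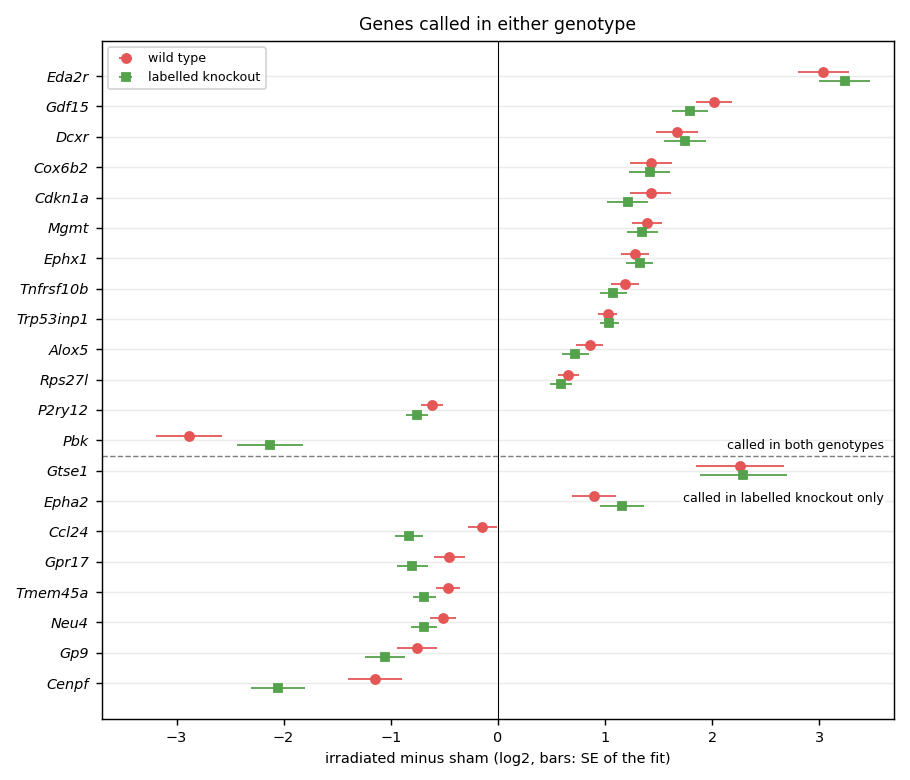
Change after irradiation (irradiated minus sham, log2, with the SE of the fit) in wild type (red circles) and labelled knockout (green squares) for the 21 genes called in either. The upper 13 genes were called in both; the lower 8 were called in labelled knockout alone and point the same way in wild type.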

How the data were processed

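The files are scanner output of 1-colour arrays; per the file headers they were read out by Agilent Feature Extraction 12.0.3.1. The intensity used is the processed signal that the authors deposited, which the header parameters give as corrected for background and spatial trend, with no scaling across arrays. A series table deposited beside it gives each array a score at 42859 features; its values look like standardised log signal, no source used here says how it was made, and it served as an alternative. The flags that the authors deposited mark spots well above background, saturated or outlying.

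From these, log2 intensity minus the array's 75th percentile over non-control spots was computed, outlier spots were set to missing and spots of a probe were averaged. Probes well above background on at least 4 of 16 arrays were kept (39589 of 56605), 32994 probes were named by RefSeq accession through the RefSeq gene table of GRCm38.p6, and a gene was represented by its brightest kept probe, with values on at least 12 arrays. The array design names an older build, so its coordinates were not used. Group means were fitted with limma 3.58.1 (R 4.3.3) over 16 arrays with 12 residual degrees of freedom, with two-sided p-values, and the fit was tested on simulated data. The number of arrays limits the precision. Bounds compare the bright group's mean with the dim group's mean of, per array, the dim probe's own signal or, where that is lower, the faintest signal still marked well above background.

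The samples, the 34 gene lists and the tests were chosen with earlier results of these data known. The text names Neil1, every called gene, the next 10 by p, members of the p53 lists, of each other list up to 4 members with the smallest p, markers of cell types, and unnamed called probes; the 8 genes named outside this are said to be. Alternatives were normexp background correction (offset 50, on the median signals, as the mean signal is not used here), quantile and median normalization, no or strict filters, 2 groups only, blocks, trended variances, array weights, probe means, the score table, and fits with each array omitted in turn. Wild-type mice with the same title number deviated together with correlations of -0.60 to 0.20. These values, over wild-type arrays alone, gave no ground to pair mice by title number.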

Additional observations from a re-analysis of the deposited data

Results flagged for a closer look

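H2bc22, the histone H2B gene among those next in rank, stood apart in 1 sham mouse: it read -6.26 in wild-type sham replicate 4 and -6.80 to -6.74 in the other 3 sham mice. The gap was 0.90 of the group's range, above Dixon's 95% critical value for 4 samples. It was the 1 group so marked among 48 groups of 24 genes checked, and chance marks about 1 group in 20.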

How the results depend on the processing

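Over 28 alternatives, 9 to 24 genes were called in wild type beside the 13 reported, the highest with array weights (24, of which 18 higher and 6 lower). Leaving out 1 array at a time gave 10 to 16 genes. Gdf15, Trp53inp1, Ephx1, Mgmt, Tnfrsf10b, Dcxr and Cox6b2 were called in all 28 alternatives, and Eda2r in all 27 that tested it. Pbk was lost with normexp and Cdkn1a in the fit of 2 groups only, where 9 genes were called, while Alox5, Rps27l and P2ry12 were lost in 9, 9 and 20 alternatives. The strict filter on dim probes left Eda2r and Pbk untested, and the deposited scores Pbk. The title's replicate number as a block (replicate block) gave 10 genes in wild type, without Alox5, Rps27l and P2ry12. The number of the description as a random block gave 17, with an estimated correlation of 0.23 between arrays that share a number. Whether either number pairs the mice cannot be told from these values. In labelled knockout the 21 calls became 11 with median centring, 13 with the replicate block, 38 with the block by description number, 6 in the fit of 2 groups only, and 11 to 22 leaving out 1 array at a time. The test of the difference between genotypes called 0 genes in each of the alternatives run. Neil1 changed sign with median centring (0.0052), and ran from -0.22 to 0.091 leaving out 1 wild-type array at a time. Among 200 named genes, 116 of 5577 changes turned sign under an alternative, none of them of a gene called in wild type. Probes not above background in a group, such as those of Eda2r, Pbk, Pimreg and Ccnb1, give only a bound there.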
